A study of Homo sapiens with 6 samples.

Results

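The genes described here encode the numbered kinases of the mitogen-activated protein (MAP) kinase cascade and the dual-specificity phosphatases, Sprouty proteins and Spred proteins that restrain it. They were taken by symbol from the deposited gene table, as the protein-coding rows named MAPK, MAP2K, MAP3K, MAP4K, DUSP, SPRY or SPRED followed by digits only. This gave 72 genes of 26391 rows: 5 MAP4K, 16 MAP3K, 7 MAP2K, 13 MAPK, 24 DUSP and 7 SPRY or SPRED genes. The RNA came from HEK293T, an established line derived from embryonic human kidney that grows attached and expresses a viral T antigen. At 50% confluency the cells received, with the lipid reagent Dharmafect I, either a non-silencing control siRNA (3 libraries) or a pool of 4 siRNAs against LOC550643 (3 libraries), and were collected after 48 h. LOC550643, listed in the table as LINC01420, is described by the submitters as the source of a polypeptide that binds the mRNA decapping factor EDC4. The comparison addresses whether steady-state RNA levels differed when LOC550643 was silenced. Both groups are the same line at 1 time point, a single siRNA pool was used, and effects of the individual siRNAs cannot be told apart. The labels do not say whether the 3 libraries of a group came from separate cultures, and the spread that the p-values rest on may be technical.

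In a MAP kinase cascade, a MAP4K or a small GTPase switches on a MAP3K, which phosphorylates a MAP2K, which phosphorylates a MAP kinase on threonine and tyrosine of its activation loop. The classical ERK branch carries growth factor signals from RAS and RAF, while the JNK and p38 branches respond mainly to stress and cytokines. Dual-specificity phosphatases remove both phosphates again, and Sprouty and Spred proteins dampen the signal between growth factor receptors, RAS and RAF. Several of these inhibitors are themselves induced by the pathway. RNA levels, measured here, are not a measure of kinase activity.

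Of the 72 genes, 66 had enough reads to be tested, among 16298 genes in all. A gene was called when limma's two-sided test on log2 values had a Benjamini-Hochberg adjusted p under 0.05 over all of those genes. By this rule 15 of the 66 genes were higher and 14 lower after LOC550643 siRNA, and 37 did not pass. The calls made up 43.9% of the 66 genes, against 35.5% of all genes tested (17.4% higher and 18.1% lower), a difference of the gene set from the table that was not tested. Only 5 of the 66 genes were called with a change of 1.5-fold or more, which is 7.58%, against 10.3% of all genes. The 5 genes were MAPK6, which rose, and MAPK11, MAP3K3, MAP2K6 and SPRY4, which fell. The median log2 fold change was 0.08 over the 66 genes and -0.02 over all genes. The kinases as a group had 11 higher and 8 lower of 40 tested, and the phosphatases, Sprouty and Spred genes had 4 higher and 6 lower of 26 tested. In 38 of the 66 genes the 3 silenced libraries lay wholly above or below the 3 control libraries, as they did in 48.5% of all genes. In the authors' deposited table, 21 of the 66 genes had an adjusted p under 0.05, against 31.7% of all genes tested here, and all 21 were called here too. MAPK6 and MAPK11 were the 2 of these genes that also passed a log2 fold change of 1 in the authors' deposited table, which 2.79% of all genes did. In the limma fit the same 2 and SPRY4 were called with a change of at least 2-fold, against 2.78% of all genes, though the SPRY4 estimate was under 2-fold in several other fits.

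**Figure D1:**
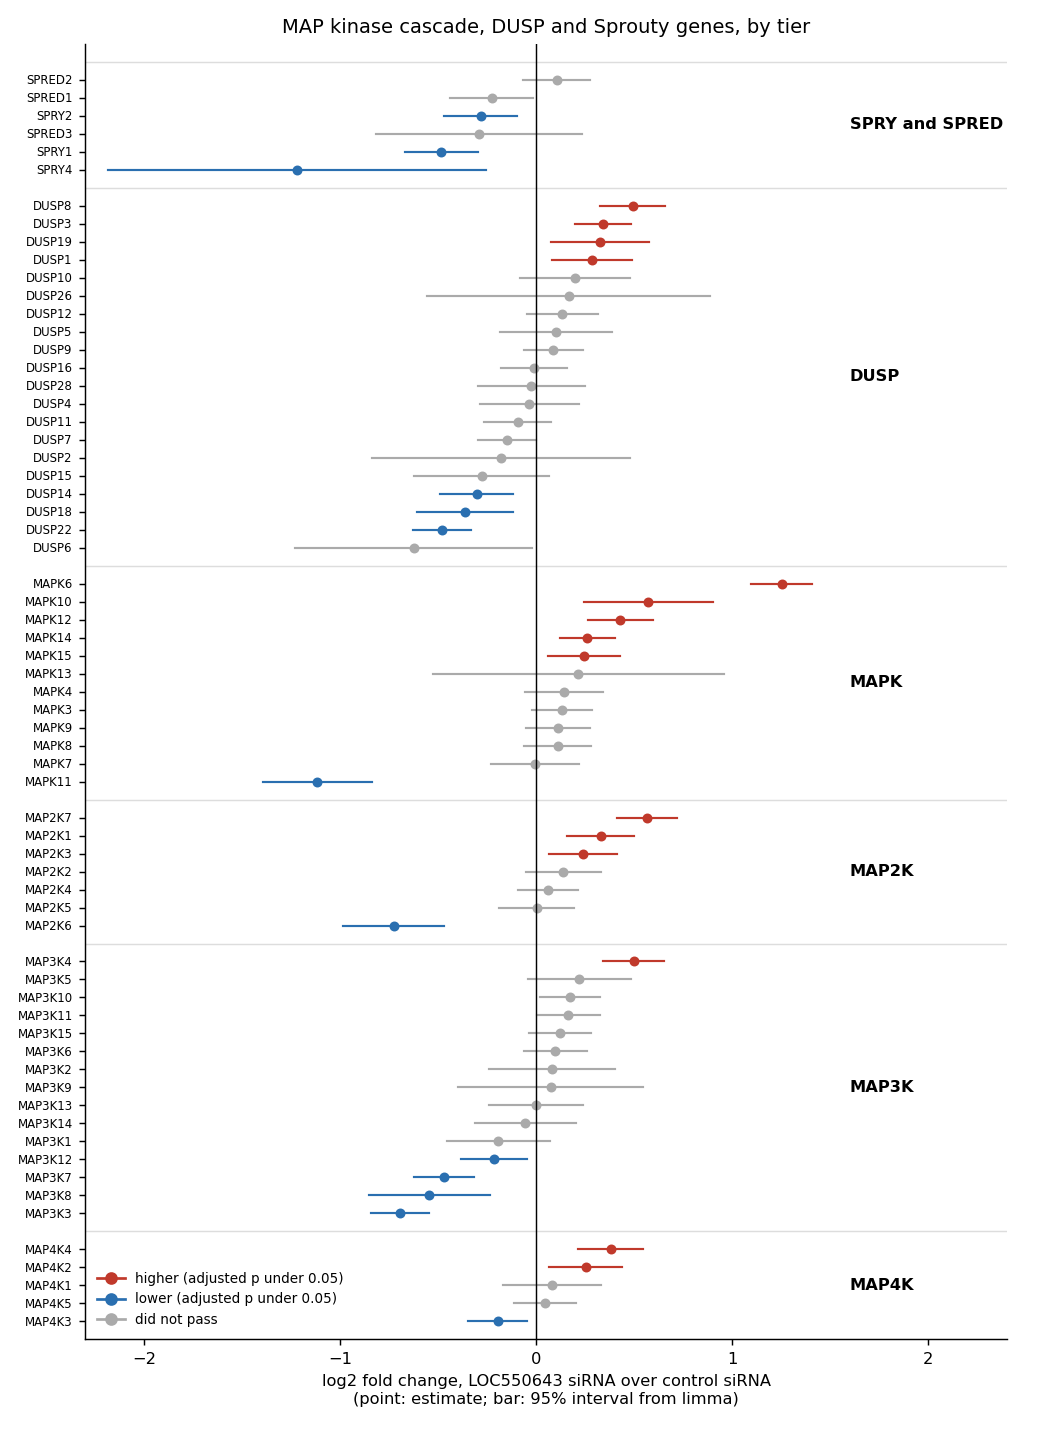
Log2 fold change (LOC550643 siRNA minus control siRNA, x axis) of the tested genes, 1 row per gene shown and ordered by tier, with 95% intervals from limma as bars and the calls in colour. MAPK6 at 1.25 and MAPK11 at -1.12 stand farthest from 0 among the kinases, and SPRY4 at -1.22 has the widest interval of the called genes.

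The silenced gene LINC01420 had 56.2, 50.7 and 51.8 CPM (read counts scaled to the usual common library size) in the control libraries and 5.85, 5.96 and 5.42 CPM in the silenced ones, and fell by 3.20 on the log2 scale (limma adjusted p = 6.98e-09). The libraries held 30739321 to 36082404 read pairs, except LOC550643 siRNA replicate 3, which held 8604236. Pairs are recovered read ends divided by 2, and since 59.2% to 61.0% of the low recovered values were even, some pairs had only 1 end counted, so that these totals and the limits derived from them are approximate. A count of 0 therefore allows a level up to 0.0812 to 0.101 CPM in 5 libraries and up to 0.357 CPM in that one, for counting error only. All 7 HEK293T markers were present, with a summed level of 1036 to 1157 CPM in control and 1169 to 1285 CPM in silenced libraries, where 2 rose and 1 fell. Of the markers of other cell types, 4 of 5 immune, 3 of 4 endothelial and 3 of 6 fibroblast markers were under 1 CPM in every library, though none was at 0 in all 6. The fibroblast marker COL1A1 was at 59.1 to 68.3 CPM in control and 61.5 to 65.6 CPM in silenced libraries, above some HEK293T markers such as INA and PAX2. Their summed levels were 2.25 to 3.29 CPM in control and 1.95 to 2.43 in silenced libraries for the immune list, 2.31 to 3.18 and 0.595 to 1.06 for the endothelial list, and 72.6 to 81.3 and 69.8 to 74.1 for the fibroblast list. Of the tested members, KDR, COL3A1 and PDGFRA fell, and the part of these lists in the results was not tested. Fewer cells of a type and less RNA per cell cannot be told apart in these bulk samples.

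Promoter sequence was available in RefSeq (GRCh38.p14) for 63 of the 72 genes. The 250 bases before the start site had a median GC content of 71.2% in these 63 genes and 58.0% over 27305 promoters. Each was searched on both strands for 6 short motifs: the cAMP response element TGACGTCA (in 1.77% of all promoters), the AP-1 site TGANTCA (6.60%), an ETS site CCGGAAGT (3.64%), the E-box CACGTG (6.49%), the GC box GGGGCGGGG (15.4%) and the TATA box TATAAA (11.1%). None of these motifs contains another, though occurrences of different motifs could overlap. The GC box was found in 21 of the 63 promoters (33.3%), in 6 of 14 genes called higher, 5 of 13 called lower and 9 of 31 that did not pass, besides DUSP23, which was not tested. The cAMP response element was found in 4 promoters, those of MAPK10, DUSP1 and DUSP8, which were called higher, and of MAP3K13, which did not pass. The AP-1 site was found in MAP2K3 and SPRED3, the ETS site in MAP3K7, the E-box in MAPK3, MAPK12, DUSP1 and DUSP2, and the TATA box in DUSP1. A match describes letters only, and no binding was measured. The promoters of 6 genes are shown to place these letters beside the changes reported further on: the 2 MAP kinases with the largest changes and MAPK12, the neighbour of MAPK11, then the 3 called genes with a cAMP response element. They were chosen after the values and matches were known. Each runs 5′ to 3′ on the gene's own strand and ends at the base before the start site, with motif matches in capitals.
MAPK6: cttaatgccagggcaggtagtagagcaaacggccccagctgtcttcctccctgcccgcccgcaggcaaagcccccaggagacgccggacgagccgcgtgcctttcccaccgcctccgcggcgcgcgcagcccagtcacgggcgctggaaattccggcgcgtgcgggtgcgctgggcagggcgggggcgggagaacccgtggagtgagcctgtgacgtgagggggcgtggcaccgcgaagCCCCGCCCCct
MAPK11: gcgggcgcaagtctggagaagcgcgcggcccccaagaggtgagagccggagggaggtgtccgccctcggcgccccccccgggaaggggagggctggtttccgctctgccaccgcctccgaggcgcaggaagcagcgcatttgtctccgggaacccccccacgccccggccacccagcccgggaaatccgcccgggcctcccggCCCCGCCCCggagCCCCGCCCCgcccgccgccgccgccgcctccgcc
MAPK12: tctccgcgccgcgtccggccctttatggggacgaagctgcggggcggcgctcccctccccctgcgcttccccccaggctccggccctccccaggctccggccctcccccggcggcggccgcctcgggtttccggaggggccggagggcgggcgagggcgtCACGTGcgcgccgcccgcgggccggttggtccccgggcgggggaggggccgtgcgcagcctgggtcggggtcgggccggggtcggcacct
MAPK10: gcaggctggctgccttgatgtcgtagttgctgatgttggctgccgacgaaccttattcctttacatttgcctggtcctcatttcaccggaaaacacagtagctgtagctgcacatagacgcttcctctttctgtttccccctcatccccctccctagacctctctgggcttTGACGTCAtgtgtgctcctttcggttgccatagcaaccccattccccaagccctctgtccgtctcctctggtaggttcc
DUSP1: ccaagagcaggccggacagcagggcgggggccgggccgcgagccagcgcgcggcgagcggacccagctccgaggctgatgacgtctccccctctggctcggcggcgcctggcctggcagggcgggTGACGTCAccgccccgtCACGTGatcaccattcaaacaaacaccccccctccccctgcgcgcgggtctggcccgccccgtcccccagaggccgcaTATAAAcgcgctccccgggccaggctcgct
DUSP8: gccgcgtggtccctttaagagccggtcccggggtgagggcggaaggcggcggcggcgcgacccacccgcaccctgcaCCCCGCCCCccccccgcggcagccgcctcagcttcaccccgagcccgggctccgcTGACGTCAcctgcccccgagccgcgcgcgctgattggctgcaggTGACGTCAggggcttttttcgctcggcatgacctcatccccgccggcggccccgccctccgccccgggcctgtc
Counted back from the start site, the GC box of MAPK6 (chr15:52018969-52019218, + strand) lay 11 to 3 bases before it, and those of MAPK11 (chr22:50270381-50270630, - strand) lay 47 to 39 and 34 to 26 bases before it. The MAPK12 promoter (chr22:50261684-50261933, - strand) held 1 E-box, 90 to 85 bases before the start. The cAMP response element lay 79 to 72 bases before the start of MAPK10 (chr4:86360054-86360303, - strand) and 125 to 118 bases before that of DUSP1 (chr5:172771196-172771445, - strand). DUSP8 (chr11:1572272-1572521, - strand) held the element at 118 to 111 and at 74 to 67 bases, with a GC box at 173 to 165 bases. DUSP1 also held the E-box at 108 to 103 bases and the TATA box at 30 to 25 bases.

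At the top of the cascade, 2 of the 5 MAP4K genes rose, 1 fell and 2 did not pass. These calls are 60.0% of the tier, against 35.5% of all genes tested, a difference that was not tested. These kinases act above the MAP3Ks, mainly on the way to JNK. MAP4K4, also called HGK, had 88.4, 101.8 and 89.2 CPM in control libraries and 123.9, 115.0 and 124.2 CPM in silenced ones. Every silenced library was above every control library, with means of 93.1 ± 7.49 and 121 ± 5.20 CPM (SD, n = 3) and a rise of 0.38 on the log2 scale (SE 0.0758, limma adjusted p = 0.00265). MAP4K2 rose by 0.25 on the log2 scale, with means of 32.9 ± 1.12 and 39.3 ± 3.95 CPM (limma adjusted p = 0.0403). MAP4K3, or GLK, which also takes part in amino acid signalling to mTORC1, fell from 37.9 ± 0.810 to 33.0 ± 0.463 CPM (log2 -0.20, limma adjusted p = 0.0461). MAP4K1, a mainly haematopoietic kinase, and MAP4K5 had log2 values of 0.08 and 0.04 and did not pass. The MAP4K2 and MAP4K3 calls lay close to the threshold. Without control replicates 1 or 3, limma's adjusted p was 0.096 and 0.11 for MAP4K2 and 0.112 and 0.128 for MAP4K3. Without LOC550643 replicates 1 or 2 it was 0.0734 and 0.164 for MAP4K2 and 0.0955 and 0.0857 for MAP4K3, and without LOC550643 replicate 3 it was 0.0879 for MAP4K3.

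Among the MAP3K genes, 4 fell, 1 rose and 10 did not pass. Calls were 33.3% of the 15 tested, near the 35.5% of all genes tested. MAP3K3, or MEKK3, which acts on the ERK5 and p38 branches, had 64.1, 66.9 and 65.4 CPM in control libraries and 41.8, 40.8 and 38.8 CPM in silenced ones. Both sets were tight and lay far apart: 65.5 ± 1.41 against 40.4 ± 1.55 CPM (SD, n = 3), a fall of 0.69 on the log2 scale (SE 0.0684, limma adjusted p = 3.45e-05). MAP3K3 (chr17:61699801-61773670 in hg19, + strand) overlaps LIMD2 on the other strand, which fell by 0.44 (limma adjusted p = 0.0059). The counting command shows no strand option, so reads of the 2 genes could be mixed where they overlap.

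MAP3K7, or TAK1, which links interleukin-1, TNF and TGF-beta receptors to JNK, p38 and NF-kappa-B, had 108.2, 113.6 and 118.1 CPM in control libraries and 77.5, 85.5 and 82.7 CPM in silenced ones. The groups did not overlap, and the gene fell by 0.47 (SE 0.0698, limma adjusted p = 0.000435). MAP3K4, or MEKK4, which acts on p38 and JNK, went the other way, from 47.1, 52.2 and 52.1 CPM to 69.1, 72.8 and 71.7 CPM. It was the only one of the 15 tested MAP3K genes that rose, by 0.50 (SE 0.0713, limma adjusted p = 0.000346). Per kilobase, MAP3K4 was below MAP3K3 in every control library, at a ratio of 0.661 ± 0.0276, and above it in every silenced one, at 1.51 ± 0.0858 (SD, n = 3). The MAP3K4 value rests on the length of a noncoding transcript record, so which gene was higher per kilobase is uncertain. The change in the ratio between groups does not depend on that length. MAP3K8, or TPL2, which acts on MAP2K1 and MAP2K2, was low and fell from 5.19 ± 0.618 to 3.53 ± 0.292 CPM (log2 -0.55). Limma's adjusted p was 0.0108, and 0.0638 when control replicate 1 was left out.

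MAP3K12, or DLK, which acts on JNK mainly in neurons, fell from 49.0 ± 2.41 to 42.2 ± 2.72 CPM (log2 -0.22, limma adjusted p = 0.0472). Its call was lost in 5 of the 6 fits that each left out 1 library, with limma adjusted p of 0.103, 0.0878 and 0.0544 without control replicates 1, 2 and 3 and of 0.1001 and 0.141 without LOC550643 replicates 1 and 3. MAP3K12 overlaps PCBP2 on the other strand, which was at 571.6 CPM in control libraries and rose by 0.29. The mixed-lineage kinases MAP3K10 and MAP3K11, which act on JNK, had log2 values of 0.17 and 0.16 and groups that did not overlap, but did not pass (limma adjusted p = 0.0787 and 0.0996). MAP3K5, or ASK1, which responds to oxidative stress, was at 0.22, and MAP3K1, or MEKK1, was at -0.19, neither past the threshold. MAP3K9 and MAP3K2 varied most within a group in this tier: in control libraries their coefficients of variation were 35.0% and 25.3%, with control replicate 2 the highest in both, at 36.6 and 58.8 CPM. MAP3K19 was not tested, with at most 0.0290 CPM in any library.

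In the MAP2K tier 3 of 7 genes rose, 1 fell and 3 did not pass. That is 57.1% called, against 35.5% of all genes tested, a difference that was not tested. The genes that passed included both kinases known for p38, 1 of the 2 for JNK and 1 of the 2 for the classical ERK branch. MAP2K7, which phosphorylates JNK, had 81.8, 83.8 and 84.0 CPM in control libraries and 114.5, 130.01 and 125.0 CPM in silenced ones. The rise was 0.56 (SE 0.0697, limma adjusted p = 0.000143), from 83.2 ± 1.21 to 123 ± 7.91 CPM (SD, n = 3). MAP2K4, the other JNK kinase, which can also act on p38, was at 53.1 ± 2.29 and 55.3 ± 1.92 CPM, and its groups overlapped (log2 0.06, 95% interval -0.09 to 0.21, limma adjusted p = 0.531).

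The 2 kinases dedicated to p38 went in opposite directions. MAP2K6 had 9.07, 9.23 and 10.1 CPM in control libraries and 6.37, 5.20 and 5.60 CPM in silenced ones, a fall of 0.73 (SE 0.117, limma adjusted p = 0.000727). MAP2K3 rose by 0.24, with means of 40.6 ± 3.31 and 47.8 ± 1.22 CPM (limma adjusted p = 0.035). Per kilobase of transcript, the ratio of MAP2K3 to MAP2K6 was 3.46 ± 0.331 in control and 6.78 ± 0.815 in silenced libraries. The MAP2K3 call was lost in 5 of the 6 fits without 1 library, with limma adjusted p of 0.116 and 0.0575 without control replicates 2 and 3 and of 0.068, 0.11 and 0.0612 without LOC550643 replicates 1, 2 and 3.

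MAP2K1, or MEK1, had 93.1, 81.5 and 95.7 CPM in control libraries and 110.8, 118.7 and 109.4 CPM in silenced ones, and rose by 0.33 (SE 0.0778, limma adjusted p = 0.00695). MAP2K2, or MEK2, the other kinase of that step, had the highest level per kilobase of all the kinases and inhibitors, at 127.9 CPM per kilobase in control and 141.0 in silenced libraries. Its groups overlapped, and it did not pass (log2 0.14, 95% interval -0.05 to 0.33, limma adjusted p = 0.244). MAP2K5, the kinase of ERK5, was at 26.8 CPM in control and 26.9 in silenced libraries, with a log2 interval of -0.19 to 0.19.

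**Figure D2:**
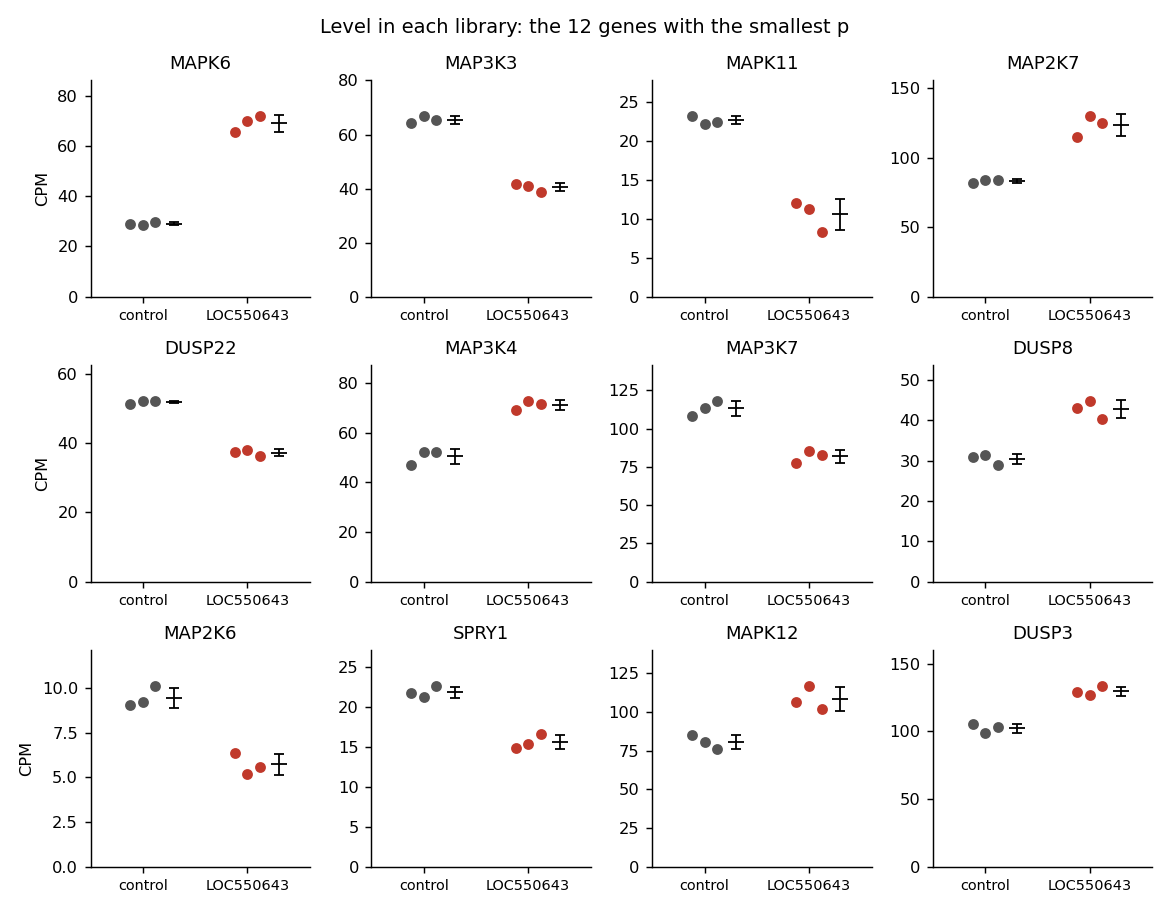
CPM (y axis) in each of the 6 libraries for the 12 genes with the smallest p, 1 panel per gene, with points for libraries and a bar with whisker for the mean ± SD of each siRNA group (n = 3). In every panel the silenced libraries lie wholly above or below the control libraries, from 65.5 to 72.0 against 28.5 to 29.6 CPM in MAPK6.

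Of the 13 MAP kinases themselves, 5 rose, 2 fell and 6 did not pass. At 53.8%, the share called was above the 35.5% of all genes tested, a difference that was not tested. MAPK6, or ERK3, an atypical MAP kinase with a single phosphorylated residue in its activation loop and a short-lived protein, had the smallest p of all 66 genes. Its levels were 28.8, 28.5 and 29.6 CPM in control libraries and 65.5, 69.9 and 72.0 CPM in silenced ones. The lowest silenced library was well above the highest control library. The means were 29.0 ± 0.573 and 69.1 ± 3.34 CPM (SD, n = 3), a 2.38-fold rise (log2 1.25, 95% interval 1.10 to 1.41, SE 0.071, limma adjusted p = 1.02e-06). The authors' deposited table gave MAPK6 a log2 fold change of 1.25 with an adjusted p of 2.29e-36. MAPK6 lies at chr15:52311411-52358462 in hg19, + strand, and overlaps no other gene of the table.

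MAPK4, or ERK4, the closest relative of MAPK6, was at 13.6 ± 0.558 and 15.02 ± 0.838 CPM. Its groups did not overlap, but it did not pass (log2 0.14, 95% interval -0.06 to 0.34, limma adjusted p = 0.24). Per kilobase, the summed level of MAPK6 and MAPK4 was 9.75 ± 0.251 CPM per kilobase in control and 19.6 ± 0.866 in silenced libraries, and the share of MAPK6 in it was 70.5% ± 0.483 and 83.8% ± 0.809 (SD, n = 3). MAPK15, or ERK8, the remaining atypical kinase, was higher, at 35.7 ± 1.42 and 42.4 ± 3.88 CPM (log2 0.24, limma adjusted p = 0.0405). Its call was lost without control replicates 1 or 3 (limma adjusted p = 0.117 and 0.104) and without LOC550643 replicates 1 or 2 (0.14 and 0.104).

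The 4 p38 kinases did not move together. MAPK11, or p38-beta, had 23.2, 22.2 and 22.5 CPM in control libraries and 12.01, 11.3 and 8.33 CPM in silenced ones. The control libraries agreed closely, and the silenced ones were all at or under 12.01 CPM, lowest in the shallow replicate 3. MAPK11 fell by 1.12 on the log2 scale (95% interval -1.40 to -0.84, SE 0.127, limma adjusted p = 8.24e-05). MAPK12, or p38-gamma, had 84.7, 80.2 and 75.7 CPM in control libraries and 106.4, 116.5 and 101.5 CPM in silenced ones, a rise of 0.43 (SE 0.076, limma adjusted p = 0.00129). MAPK12 and MAPK11 are neighbours on the minus strand of chromosome 22 in hg19, with 1953 bases and no other row of the table between them, and they changed in opposite directions. MAPK14, or p38-alpha, the form most often studied in inflammation and stress, had 84.7, 81.2 and 84.0 CPM in control libraries and 97.7, 101.3 and 100.5 CPM in silenced ones. The spread within each group was small, and MAPK14 rose by 0.26 (SE 0.0634, limma adjusted p = 0.00802). MAPK13, or p38-delta, lies 19247 bases downstream of MAPK14 on the plus strand of chromosome 6 and was low, at 1.16 ± 0.647 and 1.25 ± 0.298 CPM, with overlapping groups (limma adjusted p = 0.654). Control replicate 2 had 1.90 CPM of it, the highest of the 6 libraries.

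Per kilobase, which allows genes to be compared, the 4 p38 genes summed to 72.4 ± 2.73 CPM per kilobase in control and 86.4 ± 4.82 in silenced libraries (SD, n = 3). MAPK11 made up 12.9% ± 0.298 of that sum in control and 5.04% ± 0.802 in silenced libraries. The share of MAPK12 went from 60.3% to 68.0%, while that of MAPK14 was 26.6% and 26.7%, with overlapping groups. The ratio of MAPK12 to MAPK11 per kilobase was 4.80, 4.75 and 4.43 in control libraries and 11.6, 13.6 and 16.01 in silenced ones. Ratios were taken for 10 pairs of related genes, chosen after their values were seen. The groups did not overlap in 9 of them, a count that this choice favoured and that is no separate evidence of a change. An exact two-sided permutation test with 3 libraries against 3 cannot give a p below 0.1, which was the value for MAPK12 to MAPK11 and the other nonoverlapping pairs (0.11 after Benjamini-Hochberg adjustment).

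**Figure D3:**
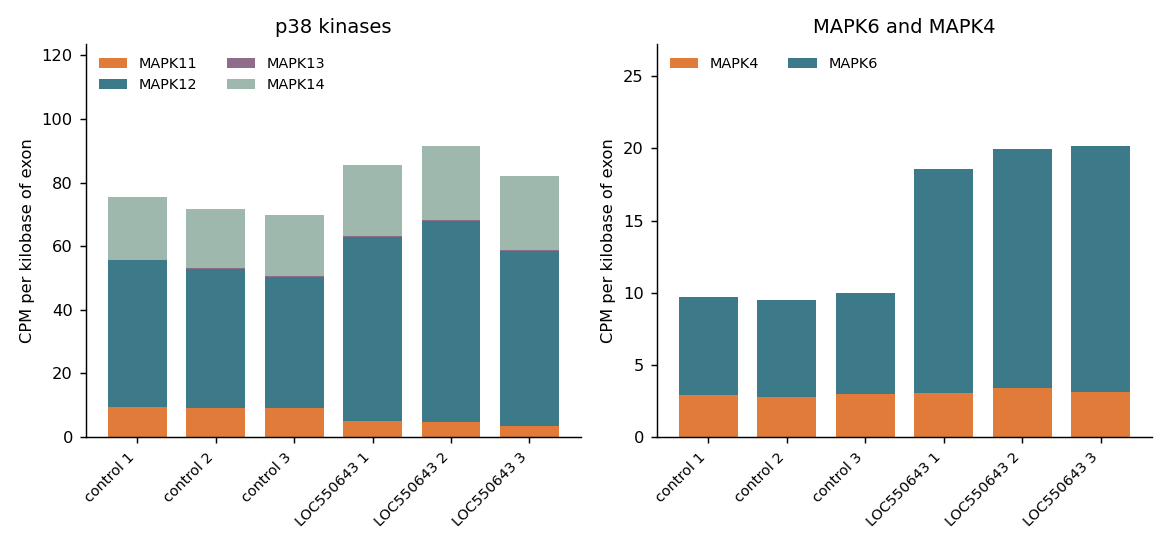
Stacked levels in CPM per kilobase of transcript (y axis) in each of the 6 libraries (x axis), for the 4 p38 genes in the left panel and for MAPK6 and MAPK4 in the right panel. The MAPK11 segment is thinner in the 3 silenced libraries although the p38 sum is higher, and the sum of MAPK6 and MAPK4 goes from 9.75 to 19.6.

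The 3 JNK kinases, which phosphorylate JUN, showed 1 rise. MAPK10, or JNK3, best known from brain, was low, with 2.61, 2.25 and 2.62 CPM in control libraries and 4.10, 3.50 and 3.57 CPM in silenced ones (log2 0.57, SE 0.149, limma adjusted p = 0.0118). Its share of the JNK sum per kilobase was 2.08% ± 0.131 in control and 2.86% ± 0.160 in silenced libraries. When all libraries were thinned to the depth of the shallowest, MAPK10 no longer passed (limma adjusted p = 0.383). MAPK8 (JNK1) and MAPK9 (JNK2), which carry the rest of the sum, both had a log2 value of 0.11 and overlapping groups (limma adjusted p = 0.299 and 0.266).

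MAPK3, or ERK1, a classical MAP kinase of the growth factor branch, was at 162 ± 8.35 and 177 ± 8.26 CPM and did not pass (log2 0.13, 95% interval -0.02 to 0.28, limma adjusted p = 0.169). Per kilobase it was the most abundant MAP kinase in both groups. MAPK7, or ERK5, was at 22.3 CPM in both groups, with a log2 interval of -0.23 to 0.22. It overlaps MFAP4 on the other strand, which rose from 2.17 to 5.03 CPM.

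Set in order of level per kilobase, the MAP kinases given here ran, in control libraries, MAPK3 (86.7 CPM per kilobase), MAPK12 (43.6), MAPK9 (24.6), MAPK14 (19.2), MAPK15 (19.1), MAPK11 (9.36), MAPK7 (7.10), MAPK8 (7.04), MAPK6 (6.87), MAPK4 (2.87), MAPK10 (0.672) and MAPK13 (0.183). MAPK14 and MAPK15, and then MAPK7, MAPK8 and MAPK6, lay within each other's spread. After silencing, MAPK6 was the seventh of the 13 at 16.4 CPM per kilobase, and MAPK11 was the tenth. In the MAP3K tier, MAP3K7 had the highest mean level in control libraries at 22.4 CPM per kilobase and stood in the fourth place in silenced libraries at 16.2. The value of MAP3K13, next at 20.4 in control libraries, rests on a short noncoding transcript record and is uncertain. The range of MAP3K7 overlapped that of MAP3K13 in control libraries and that of MAP3K11 in silenced ones, so neither place is settled.

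**Figure D4:**
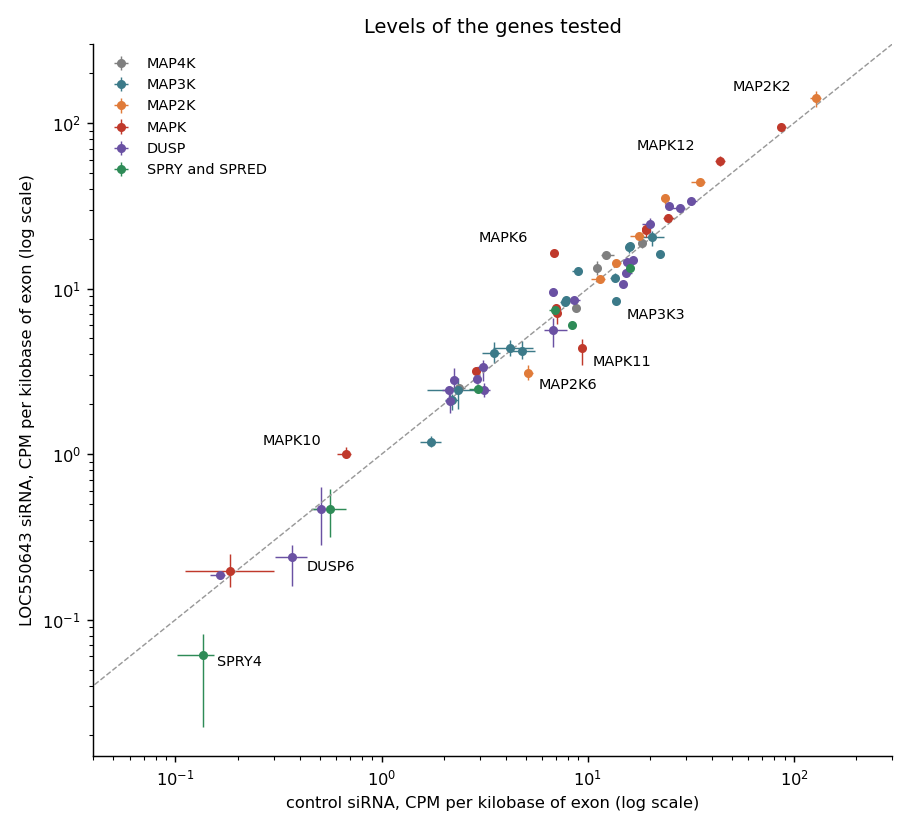
Mean level in CPM per kilobase of transcript in control libraries (x axis, log scale) against silenced libraries (y axis, log scale) for the tested genes, with bars from the lowest to the highest of the 3 libraries and colour by tier. Most genes lie near the diagonal, with MAPK6 above it at 16.4 against 6.87 and MAPK11 below it.

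Among the dual-specificity phosphatases, 4 rose, 3 fell and 13 of the 20 tested did not pass, with a median log2 value of -0.02. The share called, 35.0%, was close to the 35.5% of all genes tested. The phosphatases that a MAP kinase signal itself induces in the nucleus, DUSP1, DUSP2, DUSP4 and DUSP5, included 1 rise. DUSP1, or MKP-1, had 41.9, 42.4 and 36.8 CPM in control libraries and 43.6, 54.1 and 50.2 CPM in silenced ones. The groups did not overlap by a narrow margin (log2 0.28, SE 0.0937, limma adjusted p = 0.035), and the call was lost without control replicates 1 or 3 (0.0529 and 0.129) and without LOC550643 replicates 2 or 3 (0.143 and 0.0946). DUSP4, or MKP-2, was at 12.001 ± 0.501 and 11.8 ± 1.63 CPM (log2 -0.03, 95% interval -0.29 to 0.22).

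The cytoplasmic phosphatases directed at the classical ERK kinases, DUSP6, DUSP7 and DUSP9, gave no call. DUSP6, or MKP-3, was near 1 CPM, with 1.03, 1.48 and 1.24 CPM in control libraries and 0.956, 0.539 and 0.953 CPM in silenced ones. All silenced values were under all control values, but the estimate was imprecise (log2 -0.63, 95% interval -1.23 to -0.02, limma adjusted p = 0.0989). DUSP9, by contrast, was the most abundant phosphatase here per kilobase, at 31.7 CPM per kilobase in control libraries, and had overlapping groups (log2 0.09).

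Of the phosphatases directed at JNK and p38, DUSP8 rose and DUSP10 and DUSP16 did not pass. DUSP8 had 30.8, 31.4 and 28.9 CPM in control libraries and 43.1, 44.8 and 40.3 CPM in silenced ones. This was a rise of 0.49 (SE 0.0762, limma adjusted p = 0.000564), from 30.4 ± 1.28 to 42.7 ± 2.26 CPM (SD, n = 3). DUSP16, a close relative of DUSP8, was at 54.2 ± 3.97 and 53.7 ± 1.85 CPM, so that DUSP8 was below DUSP16 per kilobase in every control library (ratios of 0.736 to 0.873) and above it in every silenced one (1.08 to 1.16), and DUSP10 had a log2 value of 0.20 with overlapping groups (limma adjusted p = 0.25).

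The atypical phosphatases, smaller enzymes without the kinase-docking domain, gave 2 rises and 3 falls among 10 tested. Calls were 50.0% of these, against 35.5% of all genes tested, a difference that was not tested. DUSP22, also called JKAP, a regulator of JNK signalling, had 51.3, 52.0 and 52.1 CPM in control libraries and 37.3, 38.01 and 36.1 CPM in silenced ones. The coefficient of variation of its control libraries, 0.789%, was the lowest of the 66 genes, and it fell by 0.48 (SE 0.0676, limma adjusted p = 0.000312). DUSP3, or VHR, which can dephosphorylate ERK and JNK, had 105.3, 98.7 and 103.1 CPM in control libraries and 128.9, 126.7 and 133.5 CPM in silenced ones, a rise of 0.34 (SE 0.0647, limma adjusted p = 0.00194). DUSP14 fell from 22.9 ± 1.41 to 18.6 ± 0.725 CPM (log2 -0.30, limma adjusted p = 0.0159) and DUSP18 from 10.1 ± 0.655 to 7.84 ± 0.762 CPM (log2 -0.36, limma adjusted p = 0.0258). DUSP19, which binds MAP2K7, was at 11.97 ± 0.179 and 15.1 ± 2.40 CPM (log2 0.33, limma adjusted p = 0.0454), with its highest value, 17.9 CPM, in the shallow LOC550643 replicate 3.

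The calls of DUSP14, DUSP18 and DUSP19 were lost when single libraries were left out. Without control replicate 1, limma's adjusted p was 0.0802 for DUSP14, 0.0587 for DUSP18 and 0.112 for DUSP19. Without control replicate 2 it was 0.0656 for DUSP18 and 0.0895 for DUSP19, and without control replicate 3 it was 0.0873 for DUSP19. Without LOC550643 replicate 1 it was 0.0854 for DUSP18 and 0.0576 for DUSP19, without replicate 2 it was 0.0703 for DUSP18, and without replicate 3 it was 0.143 for DUSP19. DUSP13, DUSP21, DUSP23 and DUSP27 were not tested. DUSP21 and DUSP27 had no read in any library, and DUSP13 and DUSP23 had at most 0.203 and 0.357 CPM.

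Among the Sprouty genes, all 3 that were tested fell, and none of the 3 Spred genes passed. Calls made up 50.0% of the 6 tested Sprouty and Spred genes, against 35.5% of all genes tested, a difference that was not tested. SPRY1 had 21.7, 21.2 and 22.6 CPM in control libraries and 14.9, 15.4 and 16.6 CPM in silenced ones. The groups lay clearly apart, with a fall of 0.48 (SE 0.0848, limma adjusted p = 0.00121). SPRY2, the most abundant of the 7 genes per kilobase, had 34.8, 33.6 and 33.2 CPM in control libraries and 25.7, 30.7 and 27.3 CPM in silenced ones. It fell by 0.28 (SE 0.0845, limma adjusted p = 0.0222), a call that was lost without control replicate 1 (0.0753) and without LOC550643 replicates 1 or 3 (0.0794 and 0.061). With libraries thinned to the shallowest, the SPRY2 estimate was -0.16 and the call was also lost (limma adjusted p = 0.277). SPRY4 was under 1 CPM throughout, with 0.815, 0.812 and 0.541 CPM in control libraries and 0.420, 0.438 and 0.119 CPM in silenced ones. The value in LOC550643 replicate 3 is under the limit of 0.357 CPM that a count of 0 allows there, and the fall of 1.22 had a 95% interval of -2.18 to -0.26 on the log2 scale (limma adjusted p = 0.0498). The estimate was -0.69 without LOC550643 replicate 3 and -0.70 with a pseudocount of 10, and on read pairs edgeR, DESeq2 and voom gave -0.86, -0.94 and -0.99, with adjusted p of 0.0594, 0.181 and 0.0557. The SPRY4 call was lost without control replicates 1, 2 or 3 (0.146, 0.11 and 0.0603) and without LOC550643 replicate 3 (0.0941). SPRY3 was not tested, at no more than 0.116 CPM.

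The Spred proteins bind neurofibromin and keep RAS inactive. SPRED1 had 19.2, 23.5 and 20.7 CPM in control libraries and 17.3, 17.6 and 19.1 CPM in silenced ones. Its groups were apart by a narrow margin and it did not pass (log2 -0.23, 95% interval -0.44 to -0.02, limma adjusted p = 0.0884). It passed as lower when GC and length trends were removed (limma adjusted p = 0.0409) and with library totals alone (0.031). SPRED2 was at 30.6 ± 1.63 and 32.8 ± 1.36 CPM, with overlapping groups (log2 0.10, limma adjusted p = 0.322). The ratio of SPRED2 to SPRY1 per kilobase was 0.821 ± 0.0433 in control and 1.23 ± 0.0194 in silenced libraries. Whether the Sprouty and Spred genes differ from each other as classes was not tested.

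Single libraries moved the counts as well as the single calls. Leaving out 1 library at a time gave 10 to 13 higher calls among the 66 genes. It gave 7 lower calls without control replicate 1 and 9 without LOC550643 replicate 1 or 3, against 14 with all libraries. Over all genes, leaving out 1 library gave 27.0% to 33.8% called, against 35.5% with all libraries. Under all 20 alternative settings that kept a threshold of 0.05, 15 of the 29 calls remained and no called gene changed direction. These 15 were MAP4K4, MAP3K3, MAP3K4, MAP3K7, MAP2K1, MAP2K6, MAP2K7, MAPK6, MAPK11, MAPK12, MAPK14, DUSP3, DUSP8, DUSP22 and SPRY1. Scaled by library totals alone, 34.3% of the calls over all genes were in the higher direction, against 49.1% with the main scaling. With library totals the 66 genes had 10 higher and 16 lower. That scaling moved the median log2 value of all genes to -0.095. Within groups the 66 genes were a little less variable than the table as a whole, with a median coefficient of variation of 5.47% in control and 6.16% in silenced libraries, against 7.43% and 7.64% over all genes tested.

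The cascade was also read through 7 lists of other genes by role, chosen with earlier results of these data known and read against the same background of 35.5% called. Of 20 genes of the RAS and RAF tier and its regulators, 4 were higher and 3 lower (median log2 -0.04). PTPN11, the phosphatase SHP2 that sustains RAS signalling, rose by 0.85, with means of 196.5 ± 11.2 and 353.7 ± 23.4 CPM (limma adjusted p = 1.9e-05). The adaptor GRB2 and the RAF kinase ARAF fell by 0.41 and 0.31. Of 19 scaffolds and binding partners, 5 were higher and 3 lower (median 0.08), among them the arrestin ARRB2 at 0.37, the JNK scaffold MAPK8IP2 at -0.71 and the RAF inhibitor PEBP1 at 0.39. Of 7 tested relatives of the MAP3K and MAP4K families under other names, 1 was higher and none lower (median 0.11). That gene, TAOK3, was at 0.25 with overlapping groups (limma adjusted p = 0.0473), and TNIK at 0.25 and MINK1 at 0.20 did not pass (0.0762 and 0.0865). Limma's adjusted p for TAOK3 was 0.178 and 0.104 without control replicates 1 or 2 and 0.149 and 0.119 without LOC550643 replicates 2 or 3. Without control replicate 2, TNIK and MINK1 passed instead (0.0145 and 0.00801).

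Downstream of the MAP kinases, 3 of 11 kinases that they activate were higher and 2 lower (median 0.13). RPS6KA2, the ribosomal S6 kinase RSK3 activated by ERK, rose by 0.91, with means of 59.0 ± 2.02 and 111 ± 5.80 CPM (limma adjusted p = 6.44e-06), while MKNK2 and RPS6KA6 fell by 0.48 and 0.40. Of 12 transcription factors that MAP kinases phosphorylate, 5 were higher and none lower (median 0.18). JUN, the main substrate of JNK, rose by 1.21, with means of 642.7 ± 63.7 and 1504 ± 278 CPM (limma adjusted p = 5.85e-05), and DDIT3 and JUND rose by 0.77 and 0.43. Of 19 transcripts known to respond to ERK, 2 were higher, 4 lower and 13 did not pass (median -0.05). CCND1 and KLF6 rose by 0.50 and 0.38, and ETV4 fell by 0.74. Of 8 tested phosphatases outside the DUSP family that act on MAP kinases, 1 was higher and 1 lower (median -0.03). These were PPM1D at 0.26 and PTPN5, which dephosphorylates ERK and p38, at -0.81, while PPP5C at 0.19 did not pass (limma adjusted p = 0.0565). The PPM1D call was lost without control replicate 1 (0.0791) and without LOC550643 replicates 2 or 3 (0.0801 and 0.0563), and those of RPS6KA6 and ETV4 were lost when libraries were thinned to the shallowest (0.0706 and 0.0843).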

How the data were processed

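Poly-A selected RNA was sequenced as dUTP-stranded libraries with paired 75 base reads, 3 per siRNA, per the labels' protocols. Per the submitters' processing notes, CASAVA 1.8.2, STAR 2.4.0k, HOMER, edgeR 3.6.8 and the hg19 build were used. Per the file headers, HOMER counted reads over exons with no strand option shown. The deposited per-library values are a signal: the authors scaled every library to the same total, and each value is a whole multiple of 1 step per library, so reads were recovered (100% of values whole within 0.1 step) and divided by 2 to give approximate read pairs. The authors' table also holds a log2 fold change and p-values with adjustment, per the file headers.

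Values were scaled with TMM factors (edgeR 4.0.16), given as CPM, and tested as log2(value + 1) in deposited units, a pseudocount of 0.0340 CPM, with limma 3.58.1 (mean trend, two-sided), for genes that edgeR's filterByExpr kept at 10 read pairs or more. Log2 fold changes are on that scale, where the pseudocount pulls those of low genes toward 0 (SPRY4 was at -1.22, and at -1.33 with a pseudocount of 0.1). Levels per kilobase use the deposited transcript length. In a fit tested on simulated data of 16181 genes, 68% of 1.5-fold, 88% of 2-fold and 100% of 3-fold differences were recovered. Of the calls, 8.47% were false, more than the nominal share. In that simulation 100 genes were changed 1.5-fold, 50 were changed 2-fold and 50 were changed 3-fold. This is a far smaller share than the 35.5% of genes called here, so these rates may not hold for the real data. All simulated 2-fold changes were falls and all 3-fold changes were rises. No columns of other samples were left unmapped (0). Genes given by name were, apart from those not reported here, every called gene, a set of pathway genes whatever their values, the 3 smallest p of each list, and genes named after their values were seen for overlaps, ratios, levels and spread. Values in every library are given for the 12 smallest p, for called changes of 1.5-fold or more and for some others. Members and lists were chosen with earlier results of these data known. The alternatives were 3 other scalings, filters, pseudocounts, edgeR, DESeq2 1.42.0, voom, a replicate block, removal of GC and length trends, an adjusted p of 0.01, each library left out, and, chosen after seeing the data, edgeR with the block and thinned libraries. Counts cover all genes of the set, but some genes are not reported here by name or drawn in the figures.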

Additional observations from a re-analysis of the deposited data

How the results depend on the processing

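At an adjusted p of 0.01, calls over all genes were 1775 higher and 1746 lower. Calls among the 66 genes were then 9 higher and 6 lower. These were 1 MAP4K gene higher and 0 lower, 1 MAP3K higher and 2 lower, and 2 MAP2K higher and 1 lower. The rest were 3 MAPK higher and 1 lower, 2 DUSP higher and 1 lower, and 1 SPRY or SPRED lower. With libraries thinned to the shallowest, 10 of the 66 genes were higher and 9 lower, while 28.7% of all genes were called. By tier these were 1 MAP4K higher and 1 lower, 1 MAP3K higher and 3 lower, and 3 MAP2K higher and 1 lower. The rest were 3 MAPK higher and 2 lower, 2 DUSP higher and 1 lower, and 1 SPRY or SPRED lower. Scaling by library totals or by the upper quartile each left 1 MAP4K and 2 DUSP genes higher. Over all genes these scalings called 2080 and 2501 higher, against 2843 with the main scaling. Without a filter 1 MAP4K gene was higher and 0 lower, and 0 were lower with median of ratios scaling or DESeq2. Over all genes 24.8% were called without a filter and 35.6% with median of ratios scaling. Each library left out in turn gave 2063 to 2657 genes higher and 2224 to 2854 lower over the whole table. Among the 66 genes this gave 10 to 13 higher and 7 to 11 lower. By tier it gave MAP4K 1 to 2 higher and 0 to 1 lower and MAP3K 1 higher and 2 to 4 lower. MAP2K had 2 to 3 higher and 1 lower, and MAPK had 4 to 5 higher and 1 to 2 lower. DUSP had 2 to 3 higher and 1 to 3 lower, and SPRY and SPRED had 1 to 3 lower. With 1 library left out, the estimate of DUSP4 lay from -0.11 (without LOC550643 replicate 3) to 0.084 (without LOC550643 replicate 1), and with library totals it was also -0.11. The estimate of MAP2K4 turned to -0.016 with library totals, and neither passed in any fit. edgeR on read pairs called 15 higher and 12 lower of the 66 genes and DESeq2 14 and 11. Over all genes they called 36.3% and 33.1%. The cause of these differences was not tested.

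The groups share replicate numbers, but same-numbered libraries did not deviate together (correlations 0.06, -0.28 and -0.12), and control replicate 3 correlated best with LOC550643 replicate 2 (0.25). With a replicate block limma called 2691 genes higher and 2713 lower, and 12 higher and 13 lower of the 66 genes, losing DUSP19, MAP2K3, MAP4K3 and MAPK15. MAP4K genes lower were then 0, as with the block in edgeR (2692 and 2748 over all genes). Depth limits SPRY4, DUSP6, MAPK13 and other genes near or under 1 CPM, most of all in LOC550643 replicate 3.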
